A study of Mus musculus with 16 samples.

Results

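The 9 genes described here encode surface receptors and signalling proteins of B lymphocytes, measured in bulk RNA of mouse bone marrow. They are Cd79a, Cd79b, Blk, Blnk, Cd22, Ms4a1, Cr2, Fcer2a and Cd200. They were taken by symbol, as a fixed list, from a count table of 57132 genes in 16 libraries, and all 9 passed a filter on low counts that kept 19152 genes. The 8 groups held 2 libraries each. Nrf2-/- knockout mice (KO) lack the transcription factor that drives antioxidant gene expression, are labelled CB57BL/6+Nrf2-/- and were bred from Nrf2+/- parents of both sexes; the labels give them no age or sex. They received BMX-001 and 5-fluorouracil (5-FU), 5-FU alone, BMX-001 alone or PBS. Wild-type C57BL/6 mice (WT), males of 8 to 10 weeks, received the same 4 treatments. 5-FU, an antimetabolite that blocks thymidylate synthesis, was dosed at 20 mg/kg and repeated on day 7. BMX-001, called a radioprotector in the study's title, was dosed at 0.5 mg/kg beginning 24 h ahead of 5-FU and repeated at intervals of 3 days. Marrow was collected on day 10. The marrow was taken in duplicate, and the labels do not say whether duplicates came from separate animals, so p-values measure only the spread between these libraries, which may be technical.

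The B cell antigen receptor is a membrane immunoglobulin coupled to a heterodimer of Cd79a and Cd79b, whose cytoplasmic tails carry the signal inward. The Src-family kinase Blk phosphorylates those tails, and the adaptor Blnk links the kinase Syk to its downstream enzymes. Cd22, a lectin that binds sialic acid, recruits phosphatases and dampens the signal, whereas Cr2, the complement receptor CD21, lowers the threshold for it. In mouse marrow, Cd79a, Cd79b, Blk and Blnk are already expressed by B cell precursors, while Cr2 and Fcer2a, the low-affinity IgE receptor CD23, mark maturing and recirculating B cells. Ms4a1 encodes CD20, a surface protein found from the pre-B stage on. Cd200 encodes a surface glycoprotein that restrains myeloid cells through its receptor, and is made by B cells but also by endothelium and other cells.

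Promoter stretches are shown for 3 genes, one from each pattern found in the values: Cd79a, which lay lower in WT marrow after 5-FU, Cr2, which lay higher after 5-FU than in PBS, and Cd200, which lay higher after 5-FU in KO marrow. Each is written 5′ to 3′ on the gene's strand, credited to RefSeq on build GRCm38.p6, and ends before the first annotated exon. The stretch of Cr2 lies at chr1:195176720-195176969 on the minus strand, that of Cd200 at chr16:45409054-45409303 on the minus strand, and that of Cd79a at chr7:24897247-24897380 on the plus strand. Capitals mark CAGGTG, a core sequence bound by the B lineage factor E2A, on either strand (written CACCTG where it lies on the opposite one).
Cd79a: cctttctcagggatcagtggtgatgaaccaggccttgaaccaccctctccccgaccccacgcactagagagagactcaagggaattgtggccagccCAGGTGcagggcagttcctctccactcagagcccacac
Cr2: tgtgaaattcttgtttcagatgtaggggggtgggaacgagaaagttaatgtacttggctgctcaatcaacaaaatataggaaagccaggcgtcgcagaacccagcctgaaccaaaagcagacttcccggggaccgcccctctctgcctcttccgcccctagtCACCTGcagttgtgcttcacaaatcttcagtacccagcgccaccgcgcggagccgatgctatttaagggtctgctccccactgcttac
Cd200: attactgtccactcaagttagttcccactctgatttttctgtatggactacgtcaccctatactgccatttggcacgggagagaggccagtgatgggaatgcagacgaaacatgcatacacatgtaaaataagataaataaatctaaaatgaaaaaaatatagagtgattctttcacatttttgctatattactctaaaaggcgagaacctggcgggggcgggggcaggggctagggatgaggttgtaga
Promoters of 6 of the 9 genes were found in the RefSeq table, with 8 start sites between them, and 5 motifs were searched on both strands in the 250 bases before each start. CAGGTG lay in a window of Cd79a (bases -154 to -149 from the start of the RefSeq table, which lies downstream of the exon start at which the printed stretch ends), Cr2 (-88 to -83), Cd22, Blnk and Fcer2a, and occurs in 17.2% of 32851 promoters. The EBF1 motif, TCCC and GGGA with 2 bases between them, lay in the Cd22 window (0.779% of promoters), and the octamer ATTTGCAT in that of Blnk (1.6%). The antioxidant response element TGACNNNGC, the sequence bound by Nrf2, lay in the Blnk window alone (10.2% of promoters), and the PU.1 letters GAGGAAGT (2.44%) in none of the 8. No motif was found in the Cd200 window. These matches are letters in a window and not measured binding.

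Values are normalised CPM, counts scaled to 1 common library size with TMM factors. Library totals were 27305707 to 36588168 counts in KO and 34387432 to 39909188 in WT. Nfe2l2, the gene disrupted in KO mice, measured 6.48 to 16.7 CPM in KO and 102 to 122 CPM in WT libraries. Xist had at most 10 counts in any library and the Y-linked genes summed to 135 to 202 CPM in KO and 134 to 162 CPM in WT, so both genotypes looked male. Marrow identity was clear from the 10 erythroid genes (40600 to 76200 CPM in sum) and the 12 neutrophil genes (26000 to 38600 CPM), while the 12 T cell genes summed to 78.9 to 126 CPM. The 8 monocyte genes summed to 763 to 2010 CPM and the 8 plasmacytoid dendritic cell genes to 212 to 295 CPM. KO BMX-001 replicate 1 stood apart, with a first principal component score of 112 against -31 to 7.62 for the other 15, Mpo at 284 CPM against 1390 to 2270 CPM and Malat1 at 12200 CPM against 2550 to 5340 CPM. The main edgeR fit was therefore also run on the other 15 libraries. There KO BMX-001 is 1 library, assumed to vary like the rest. DESeq2 was run on all 16 libraries only, so its calls were not checked without that replicate. In whole marrow, fewer B cells and less RNA per B cell cannot be told apart.

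Per kilobase of exon, the receptor subunits were by far the most abundant of the 9. Cd79b averaged 119 ± 24.4 CPM per kb and Cd79a 103 ± 22.2 CPM per kb (SD over the 16 libraries). Ms4a1 (15.4 ± 2.84), Blk (13.8 ± 3.20), Cd22 (12.2 ± 1.80), Blnk (11.7 ± 2.93) and Fcer2a (10.5 ± 1.45 CPM per kb) formed a middle group whose neighbours in this order differed by less than their SD. Cr2 (2.14 ± 0.531) and Cd200 (1.62 ± 0.31 CPM per kb) were lowest, and differed from each other by less than the SD of Cr2. Relative counting error was largest for the sparsest gene, Cd200, which had 123 to 265 counts in the 16 libraries.

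**Figure D1:**
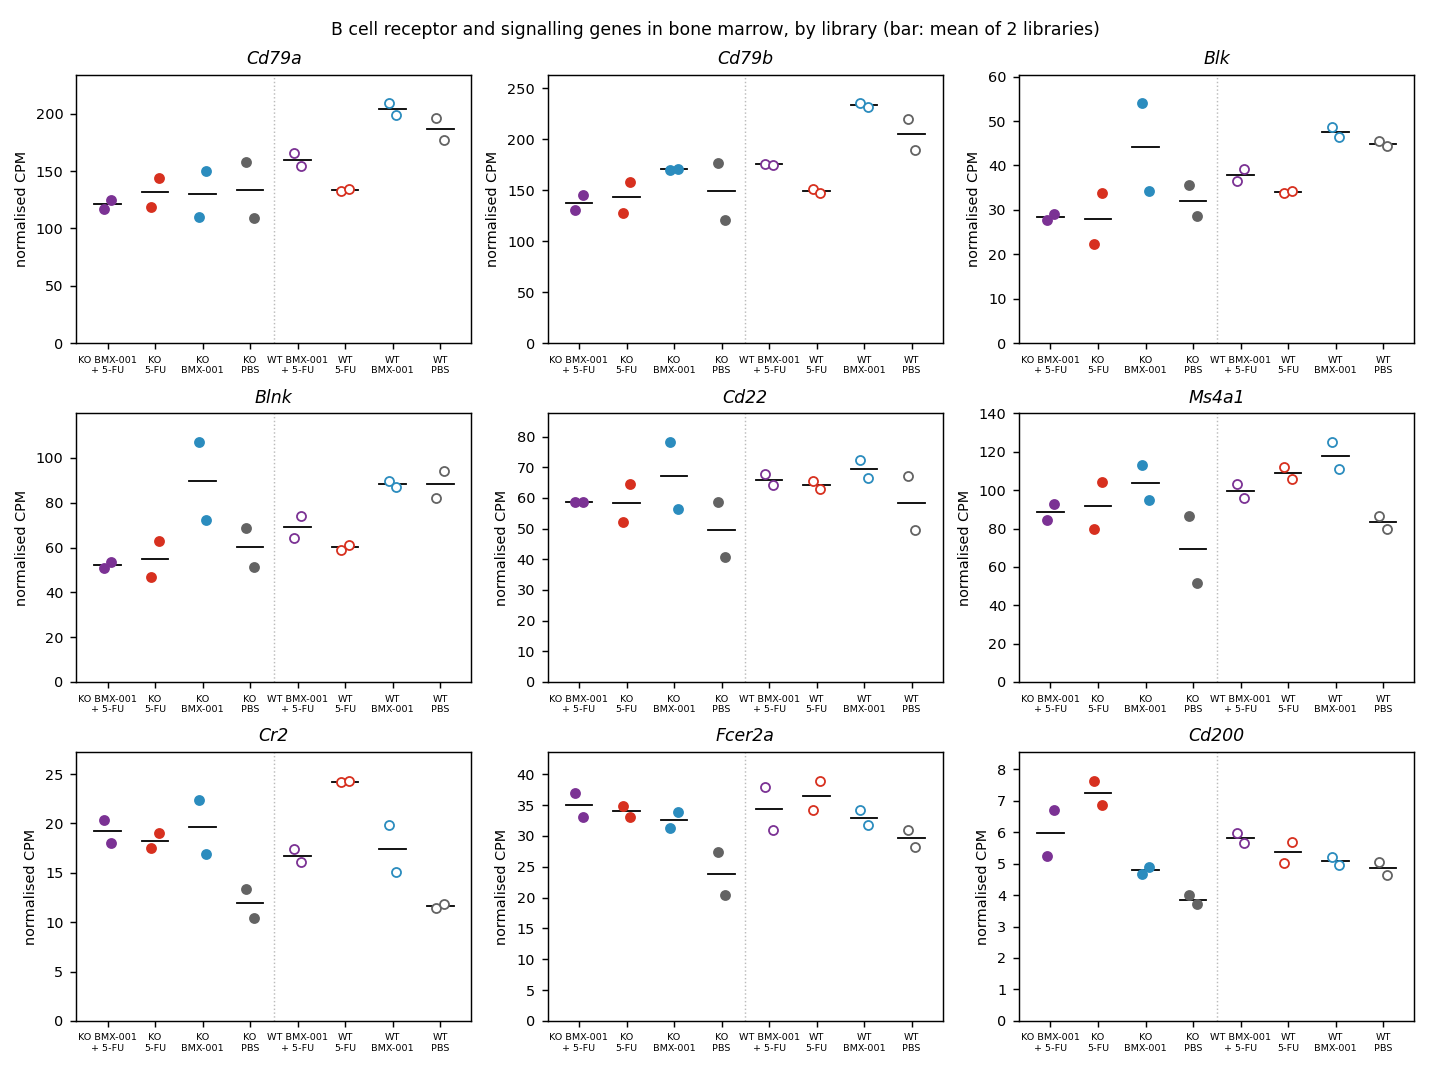
Normalised CPM of the 9 genes in each of the 16 libraries, KO groups (filled) left of WT groups (open), with the mean of 2 libraries as a bar. Cr2 is lowest in the 4 PBS libraries (10.4 to 13.4 CPM), and Cd79a, Cd79b, Blk and Blnk are lower in WT libraries given 5-FU than in those not given it.

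The largest treatment difference among the 9 genes was that of Cr2 after 5-FU in WT mice, and the receptor subunits, Blk and Blnk differed from it in sign. Cr2 was 2.1-fold higher, Ms4a1 and Fcer2a 1.31-fold and 1.24-fold, while Cd79a, Cd79b, Blk and Blnk measured 0.682 to 0.755 of their PBS level. The comparison asks how marrow differed on day 10, after 5-FU that was repeated on day 7. In edgeR's quasi-likelihood test with Benjamini-Hochberg adjustment over all genes, 0 of the 9 passed an adjusted p of 0.05 on 16 libraries, where 0.00522% of all genes did. On 15 libraries 1 passed, Cr2, where 6.87% of all genes did. In the same libraries the 10 erythroid genes summed to 40600 to 56400 CPM in WT libraries given 5-FU and 51600 to 74800 CPM in those not given it, and the 12 neutrophil genes to 26300 to 30700 CPM with 5-FU and 29400 to 36000 CPM without. For 5-FU against PBS in WT their median log2 differences were -0.32 and -0.28, with 0 genes called in either list on 16 libraries and 4 erythroid and 2 neutrophil genes called lower on 15. The part of these cells in the values of the 9 genes was not tested.

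Cr2 measured 24.2 and 24.3 CPM in the WT 5-FU libraries, against 11.4 and 11.8 CPM in the WT PBS libraries. The groups did not overlap and each pair of libraries was tight. The log2 difference was 1.07 ± 0.17 (SE), with an edgeR adjusted p of 0.0696 on 16 libraries. Without KO BMX-001 replicate 1 it was 1.07 ± 0.14 with an adjusted p of 0.00177, and it stayed past the threshold when each of 14 further libraries was left out as well (adjusted p 0.00207 to 0.0499). DESeq2 called Cr2 alone of the 9 on 16 libraries (adjusted p = 4.9e-05, where 2.93% of all genes were called). Follicular dendritic cells also carry Cr2, and 4 of their markers were matched by symbol. Cxcl13 had at most 10 counts and Madcam1 at most 3 counts in any library. The less specific Mfge8 and Clu were expressed, and together summed to 35 to 52.8 CPM in WT libraries given 5-FU and 23.3 to 49.2 CPM in those not given it. The part of these cells in the Cr2 values of WT mice was not tested.

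Fcer2a, the other marker of maturing B cells, measured 34.2 and 38.9 CPM in WT 5-FU libraries, against 31 and 28.2 CPM in WT PBS libraries. Its log2 difference of 0.31 ± 0.15 did not pass the test (edgeR adjusted p = 0.359). Ms4a1 stood at 112 and 106 CPM after 5-FU, against 86.6 and 80 CPM in PBS (log2 0.39 ± 0.20, edgeR adjusted p = 0.387). Both pairs of groups were separate, but neither gene passed on 15 libraries either (adjusted p = 0.168 and 0.315). Cd22, the inhibitory lectin, had 65.7 and 62.9 CPM after 5-FU, inside the span of its 2 PBS libraries at 67.1 and 49.6 CPM.

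The signal-carrying subunits lay on the other side. Cd79a measured 133 and 134 CPM in WT 5-FU libraries, against 196 and 177 CPM in WT PBS libraries. Cd79b measured 151 and 147 CPM, against 220 and 189 CPM. The kinase gene Blk had 33.7 and 34.2 CPM after 5-FU and 45.5 and 44.4 CPM in PBS, and the adaptor gene Blnk 59.1 and 61.2 CPM after 5-FU and 82.1 and 94.2 CPM in PBS. In all 4 genes both 5-FU libraries lay below both PBS libraries. These genes varied together across libraries, so they are not 4 separate observations. How many of all genes separated in this way was not counted, here or for Cr2, Fcer2a and Ms4a1 above. The log2 differences of -0.48 ± 0.17 (Cd79a), -0.46 ± 0.16 (Cd79b), -0.41 ± 0.20 (Blk) and -0.55 ± 0.19 (Blnk) did not pass (edgeR adjusted p 0.21 to 0.385 on 16 and 0.0508 to 0.113 on 15 libraries).

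With the libraries that also received BMX-001, 4 WT libraries stood on each side. The averaged 5-FU difference in WT mice was -0.42 ± 0.12 for Cd79a, -0.43 ± 0.11 for Cd79b, -0.37 ± 0.14 for Blk and -0.45 ± 0.13 for Blnk, on the log2 scale, and 0.51 ± 0.12 for Cr2. For Cr2, the libraries with both agents (17.4 and 16.1 CPM) lay inside the span of those with BMX-001 alone (19.8 and 15.1 CPM). Its averaged difference thus came from 5-FU against PBS. With edgeR 0 of the 9 genes passed on 16 libraries (0.0574% of all genes did) and Cr2 alone passed on 15 libraries (adjusted p = 0.0165, where 1.94% of all genes did). That call was lost when WT BMX-001 replicate 2, either WT 5-FU replicate or WT BMX-001 and 5-FU replicate 1 was also left out, at adjusted p up to 0.136. DESeq2 called Cr2 (adjusted p = 0.0161) and Cd79b (adjusted p = 0.0329), where 1.64% of all genes were called. In 4 of the 9 genes, Cd79a, Cd79b, Blk and Blnk, the 4 WT libraries given 5-FU lay wholly below the 4 not given it, which held for 4.49% of all genes. Cd79a, for instance, spanned 133 to 166 CPM with 5-FU and 177 to 209 CPM without, and Blnk 59.1 to 74.1 CPM with 5-FU and 82.1 to 94.2 CPM without.

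**Figure D2:**
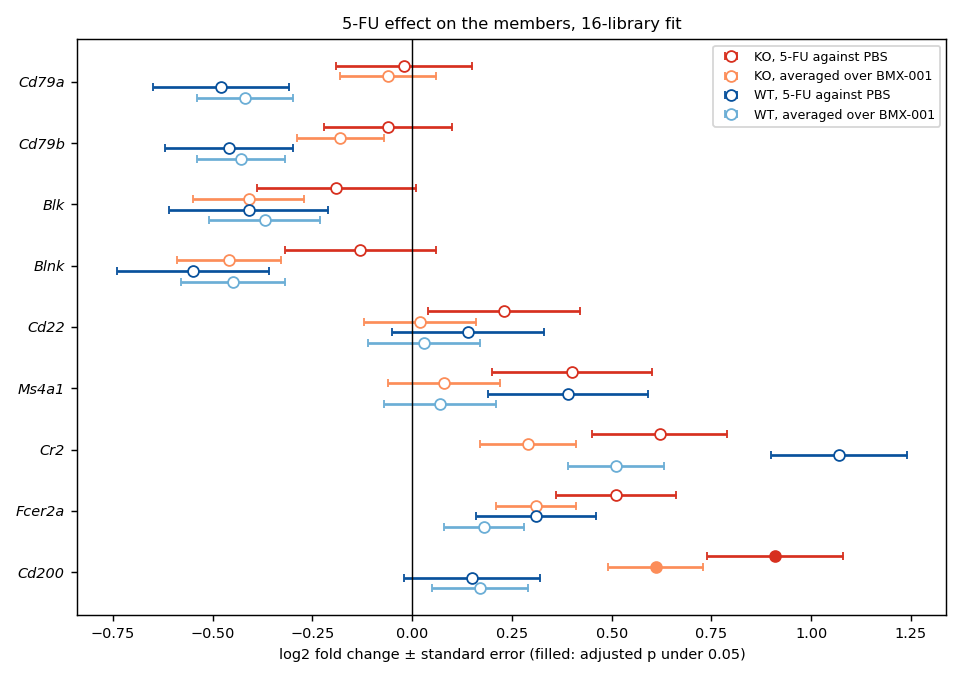
Log2 fold change ± standard error of the 9 genes for 5-FU in KO and WT mice, against PBS and averaged over BMX-001, from the 16-library fit; filled points have an edgeR adjusted p under 0.05. Cd200 in KO mice has the only filled points (0.91 and 0.61), and Cr2 in WT mice is the largest difference at 1.07.

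In KO mice 5-FU was followed by a higher level of Cd200, the one gene of the 9 that passed the test on all 16 libraries. Cr2, Fcer2a and Ms4a1 again lay higher after 5-FU, by 1.53-fold, 1.42-fold and 1.32-fold. Cd79a and Cd79b were almost level, at 0.984 and 0.962 of PBS. The median log2 difference of the 9 was 0.23. It was -0.03 without KO PBS replicate 2 and 0.53 without KO PBS replicate 1, so it depended on the PBS libraries. The edgeR test called 1 of 9 genes where 0.454% of all genes were called, and only 0.0104% were called higher. On 15 libraries it called 2, Cd200 and Cr2, where 2.82% of all genes were called, and DESeq2 on 16 libraries called Cd200 alone (2.42% of all genes). The 10 erythroid genes summed to 47000 to 57900 CPM in KO libraries given 5-FU and 67800 to 76200 CPM in those not given it, with all 10 log2 differences to PBS negative (median -0.59; Epb42 and Tmcc2 called lower on 16 libraries and 6 genes on 15). All 8 monocyte genes also had negative differences (median -0.57, 0 called on 16 and 3 on 15 libraries; sums of 1190 to 1400 CPM with 5-FU and 763 to 2010 CPM without), and all 12 T cell genes positive ones (median 0.35, 0 called on either; 100 to 126 CPM with 5-FU and 86.9 to 104 CPM without). Their part in the values of the 9 genes was not tested.

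Cd200 measured 7.63 and 6.86 CPM in KO 5-FU libraries, against 4 and 3.71 CPM in KO PBS libraries. The KO libraries given both agents had 5.24 and 6.71 CPM, against 4.68 and 4.91 CPM with BMX-001 alone. All 4 KO libraries given 5-FU lay above the 4 not given it, which held for 3.49% of all genes. The log2 difference of 5-FU to PBS was 0.91 ± 0.17 (1.88-fold, edgeR adjusted p = 0.0413) and that averaged over BMX-001 was 0.61 ± 0.12 (adjusted p = 0.0188, where 1.9% of all genes passed). The first call was lost when any 1 of 14 of the 16 libraries was left out, at adjusted p up to 0.332, the exceptions being the 2 KO BMX-001 libraries. On 15 libraries its adjusted p was 0.00657, lost only without KO 5-FU replicate 1 as well (0.0541). The averaged call was lost without KO PBS replicate 1, KO PBS replicate 2, KO 5-FU replicate 1 or KO BMX-001 and 5-FU replicate 2, at adjusted p up to 0.12, and on 15 libraries its adjusted p was 0.018 (3.49% of all genes passed), lost when KO 5-FU replicate 1 or KO BMX-001 and 5-FU replicate 2 was left out as well (up to 0.0962).

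Stromal and endothelial genes, from cells that can also make Cd200 RNA, had higher values in KO 5-FU than in KO PBS libraries. The 12 listed genes summed to 887 and 967 CPM in KO 5-FU libraries, against 294 and 581 CPM in KO PBS libraries. They summed to 458 and 733 CPM with both agents and 275 and 638 CPM with BMX-001 alone, groups that overlapped. All 12 had positive log2 differences for 5-FU against PBS in KO mice, with a median of 0.91 and 0 called, and none was at 0 in any library (the sparsest, Emcn, measured at least 0.268 CPM). The part of these cells in the Cd200 result was not tested. In WT mice, the Cd200 difference was 0.15 ± 0.17 (5.02 and 5.7 CPM after 5-FU, against 5.05 and 4.65 CPM in PBS, edgeR adjusted p = 0.749). WT stromal sums were 707 and 673 CPM after 5-FU and 757 and 527 CPM in PBS.

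Cr2 in KO mice given BMX-001 overlapped with and without 5-FU (20.4 and 18 CPM, against 22.4 and 16.9 CPM). Without BMX-001, Cr2 in KO mice measured 17.5 and 19 CPM after 5-FU, against 13.4 and 10.4 CPM in PBS. Its log2 difference of 0.62 ± 0.17 had an edgeR adjusted p of 0.191 on 16 libraries and of 0.0246 on 15 libraries (0.62 ± 0.14). The call on 15 libraries was lost when KO PBS replicate 2 or either KO 5-FU replicate was left out as well, at adjusted p up to 0.17. Mfge8 and Clu, the follicular dendritic cell markers above that passed the count filter, both had positive differences in KO mice (median 0.55, 0 called) and summed to 26.3 to 54.7 CPM with 5-FU and 11.1 to 44.9 CPM without. Their part in the Cr2 values was not tested. Fcer2a stood at 34.9 and 33.1 CPM after 5-FU, against 27.4 and 20.4 CPM in PBS (0.51 ± 0.15, edgeR adjusted p = 0.215). Ms4a1 had 79.5 and 104 CPM after 5-FU, against 86.7 and 51.8 CPM in PBS, groups that overlapped (0.40 ± 0.20, edgeR adjusted p = 0.568). Cd22 overlapped too, at 52.2 and 64.4 CPM after 5-FU and 58.6 and 40.7 CPM in PBS.

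The 4 proximal signalling genes spread widely between KO replicates. Cd79a measured 119 and 144 CPM after 5-FU, against 158 and 109 CPM in PBS, and Cd79b 128 and 158 CPM, against 177 and 121 CPM. Blk measured 22.4 and 33.7 CPM after 5-FU and 35.5 and 28.6 CPM in PBS, and Blnk 46.7 and 62.8 CPM after 5-FU and 68.8 and 51.4 CPM in PBS. In each of the 4 genes the 5-FU and PBS libraries overlapped. Averaged over BMX-001, Blk was at -0.41 ± 0.14 and Blnk at -0.46 ± 0.13 on the log2 scale (edgeR adjusted p = 0.185 and 0.117), but without KO BMX-001 replicate 1, the library in which both are highest (54 and 107 CPM), they were at -0.23 ± 0.12 and -0.30 ± 0.12. DESeq2 on 16 libraries called Blnk (adjusted p = 0.0327) beside Cd200, where 5.75% of all genes were called.

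Whether the 5-FU difference itself differed between the 2 genotypes was tested as an interaction. No gene of the 9 passed in edgeR, nor did any of the 19152 (0%; 1300 had an unadjusted p under 0.05, and DESeq2 called 27 genes, none of the 9). Cd200 had the largest difference, 0.44 ± 0.17 higher in KO than in WT on the log2 scale (95% interval 0.07 to 0.81, unadjusted p = 0.0223, edgeR adjusted p = 0.689). For Cd79a it was 0.35 ± 0.17 (95% interval -0.02 to 0.73), for Cr2 -0.21 ± 0.17 (-0.58 to 0.15) and for Blnk 0 ± 0.19 (-0.41 to 0.40). These values depended on KO BMX-001 replicate 1. Of the 9 differences, 5 were positive on 16 libraries (median 0.01) and 8 on 15 libraries (median 0.14). The apparent contrast between genotypes in Cd79a and Cd200 is thus not shown as a difference at this replication.

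Taking genotype across all 4 treatments, the receptor subunits and proximal signalling genes lay lower in KO than in WT marrow, and Cr2, Cd200 and Fcer2a were close to level. Cd79a stood at 0.763 and Cd79b at 0.797 of the WT level, Blk at 0.8, Blnk at 0.831 and Ms4a1 at 0.86. In edgeR's test on 16 libraries 0 of the 9 genes passed, where 0.178% of all genes did; 5 had an unadjusted p under 0.05, all lower, against 5.78% of all genes. The median log2 difference of the 9 was -0.22, and that of all genes 0.004. On 15 libraries 2 passed, Cd79a and Blk, both lower, where 1.39% of all genes did.

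Cd79a averaged 129 ± 19.1 CPM in KO and 171 ± 29.3 CPM in WT libraries (SD, n = 8 each). Its range was 109 to 158 CPM with a median of 122 CPM in KO, and 133 to 209 CPM with a median of 172 CPM in WT. Cd79b averaged 150 ± 22 CPM in KO and 190 ± 34.7 CPM in WT (range 121 to 177 CPM in KO and 147 to 235 CPM in WT). Blk averaged 33.1 ± 9.43 CPM in KO and 41.1 ± 5.89 CPM in WT. The 8 KO and 8 WT libraries overlapped in every one of the 9 genes, while 0.178% of all genes were without overlap.

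The log2 differences were -0.39 ± 0.09 for Cd79a (edgeR adjusted p = 0.0965), -0.33 ± 0.08 for Cd79b (0.113), -0.32 ± 0.10 for Blk (0.224) and -0.27 ± 0.09 for Blnk (0.275). On 15 libraries, Cd79a was at -0.34 ± 0.07 (edgeR adjusted p = 0.0496) and Blk at -0.41 ± 0.08 (adjusted p = 0.0247). The Cd79a call was lost in 11 and the Blk call in 7 of 14 refits that left out a further library, at adjusted p up to 0.138 and 0.077. DESeq2 on 16 libraries called Cd79a (adjusted p = 0.00548) and Cd79b (adjusted p = 0.0126), where 2.08% of all genes were called. Cr2 differed by 0 ± 0.09 on the log2 scale (95% interval -0.19 to 0.18) and Cd200 by 0.01 ± 0.09 (-0.17 to 0.20).

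**Figure D3:**
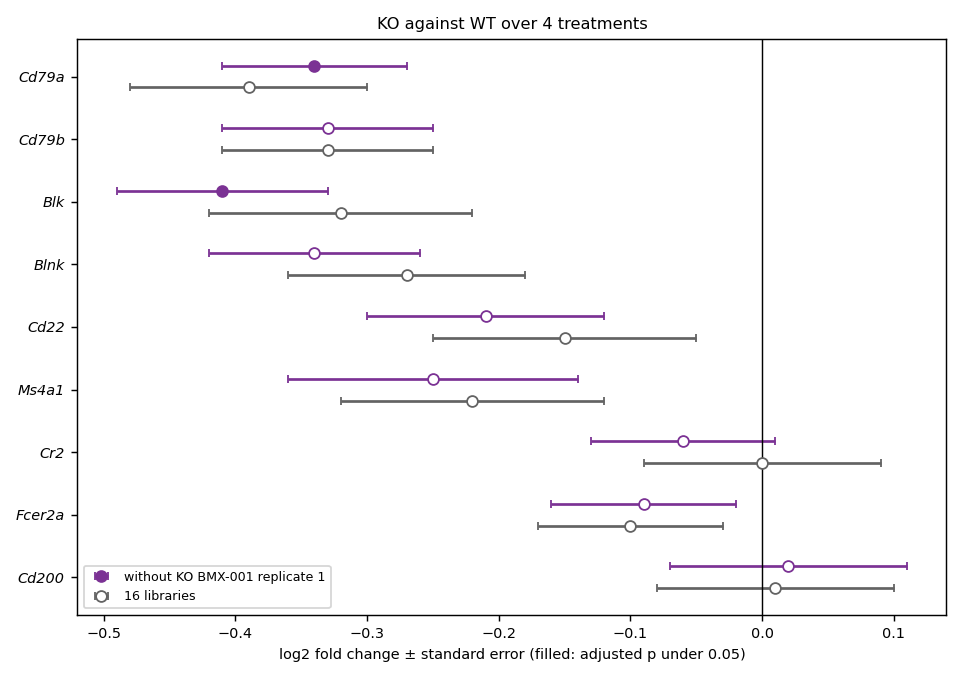
Log2 fold change ± standard error of KO against WT over 4 treatments for the 9 genes, without KO BMX-001 replicate 1 and on 16 libraries; filled points have an edgeR adjusted p under 0.05. Cd79a, Cd79b, Blk and Blnk lie at -0.27 to -0.41, and Cr2, Fcer2a and Cd200 within 0.10 of 0.

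In PBS alone the same 4 genes were again lowest relative to WT, from -0.46 ± 0.16 (Cd79b) to -0.55 ± 0.19 (Blnk), and KO PBS replicate 2 had the smaller values. That library was the lowest of all 16 for 7 of the 9 genes, for example at 51.8 CPM of Ms4a1 and 40.7 CPM of Cd22, against 86.7 and 58.6 CPM in KO PBS replicate 1. No gene of the 9 passed in edgeR (adjusted p of 1 for each, where 0.0261% of all genes passed; 4 of the 9 had an unadjusted p under 0.05, all lower, against 1.87% of all genes, and DESeq2 called none of the 9). The median log2 difference of the 9 was -0.33, and it was -0.66 without KO PBS replicate 1 and -0.19 without KO PBS replicate 2.

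With BMX-001 alone the log2 difference to PBS was positive for 8 of 9 genes in KO mice and all 9 in WT mice, and none passed the test. Cr2 and Ms4a1 differed most in WT mice, by 0.59 ± 0.17 and 0.50 ± 0.20 on the log2 scale. Cr2 measured 19.8 and 15.1 CPM with BMX-001, against 11.4 and 11.8 CPM in PBS, and Ms4a1 125 and 111 CPM, against 86.6 and 80 CPM. No gene passed in edgeR in WT mice (0%; 977 of all genes had an unadjusted p under 0.05, and DESeq2 called 0), with adjusted p = 0.961 for both genes. Cd79a (209 and 199 CPM, against 196 and 177 CPM in PBS), Cd79b (235 and 231 CPM, against 220 and 189 CPM), Blk and Blnk differed by 0 to 0.19.

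In KO mice Cr2 had 22.4 and 16.9 CPM with BMX-001, against 13.4 and 10.4 CPM in PBS (0.72 ± 0.17, edgeR adjusted p = 0.0811). Without replicate 1 of KO BMX-001 the difference was 0.51 ± 0.17 (adjusted p = 0.471). Fcer2a measured 31.3 and 33.9 CPM with BMX-001, against 27.4 and 20.4 CPM in PBS (0.45 ± 0.15, edgeR adjusted p = 0.0974). The median log2 difference of the 9 was 0.45. It was 0.22 without KO PBS replicate 2, 0.67 without KO PBS replicate 1 and 0.27 without KO BMX-001 replicate 1. Without both KO BMX-001 replicate 1 and KO PBS replicate 2 it was 0.07. No gene of the 9 passed in edgeR on 16 or 15 libraries (0.00522% and 0% of all genes did; 6 of the 9 had an unadjusted p under 0.05 on 16 libraries and 2 on 15, all higher, against 16.5% and 4.82% of all genes). DESeq2 called Cr2 on 16 libraries (adjusted p = 0.0104), where 11.5% of all genes were called.

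Given with 5-FU, BMX-001 left Cr2 in WT mice at 17.4 and 16.1 CPM, against 24.2 and 24.3 CPM with 5-FU alone, while Cd79a and Cd79b stood above their level with 5-FU alone. Cr2 differed by -0.53 ± 0.17 on the log2 scale (unadjusted p = 0.0078, edgeR adjusted p = 0.998, and 0.392 on 15 libraries). Cd79a stood at 166 and 154 CPM with both agents, against 133 and 134 CPM with 5-FU, and Cd79b at 176 and 175 CPM, against 151 and 147 CPM (0.26 ± 0.17 and 0.24 ± 0.16). In KO mice all 9 differences lay between -0.28 (Cd200) and 0.07 (Cr2), each within 2 SE of 0. Neither genotype had a called gene among the 9 or among all genes with edgeR on 16 libraries (0%; 499 genes in KO and 753 in WT had an unadjusted p under 0.05, and DESeq2 called 6 in KO and 0 in WT).

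Across treatments Cr2 shared a level in the PBS groups of both genotypes and lay above it in every treated library. The 12 treated libraries spanned 15.1 to 24.3 CPM (19.3 ± 3.06, SD) and the 4 PBS libraries 10.4 to 13.4 CPM (11.7 ± 1.28). No other gene of the 9 separated the treated from the PBS libraries, and 0.851% of all genes did so in this direction. The split was noticed after the values were seen, and the comparisons behind it share the same PBS libraries.

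The 9 genes did not vary as one block. Over the 16 libraries, Spearman's rho between Cd79a, Cd79b, Blk and Blnk was 0.63 to 0.96 in their 6 pairs, and 0.93 to 0.99 without KO BMX-001 replicate 1. Cr2 followed Fcer2a (0.73, and 0.81 on 15 libraries) and Ms4a1 followed Cd22 (0.81, and 0.77). In the 8 pairs of Cr2 or Fcer2a with the 4 signalling genes it was -0.37 to -0.07, and -0.38 to -0.16 on 15 libraries. These values describe libraries that share treatment groups and scaling, and carry no test. In KO BMX-001 replicate 1 the ratio of Cd79a to Cd79b CPM was 0.645, against 0.861 to 0.945 in the other 15 libraries.

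The CPM of Cr2 as a percentage of that of Blnk separated the KO libraries given 5-FU from the KO libraries not given it. Uncorrected for length and set only between libraries, it was 40.3% and 33.5% in KO mice given both agents and 37.6% and 30.2% with 5-FU, against 21% and 23.4% with BMX-001 and 19.5% and 20.2% in PBS. In WT mice it was 27.2% and 21.8% with both agents, 41% and 39.8% with 5-FU, 22.1% and 17.4% with BMX-001 and 13.9% and 12.5% in PBS, so that the libraries with both agents overlapped those with BMX-001 alone. The CPM of Ms4a1 as a percentage of that of Cd79b gave the other order. It overlapped in KO mice, at 62% to 65.5% with 5-FU and 42.7% to 66.7% without, where KO BMX-001 replicate 1 had the highest value, and was separate in WT mice, at 54.7% to 74.4% with 5-FU and 39.4% to 53.1% without. Both ratios were chosen after the values were seen and have no test.

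**Figure D4:**
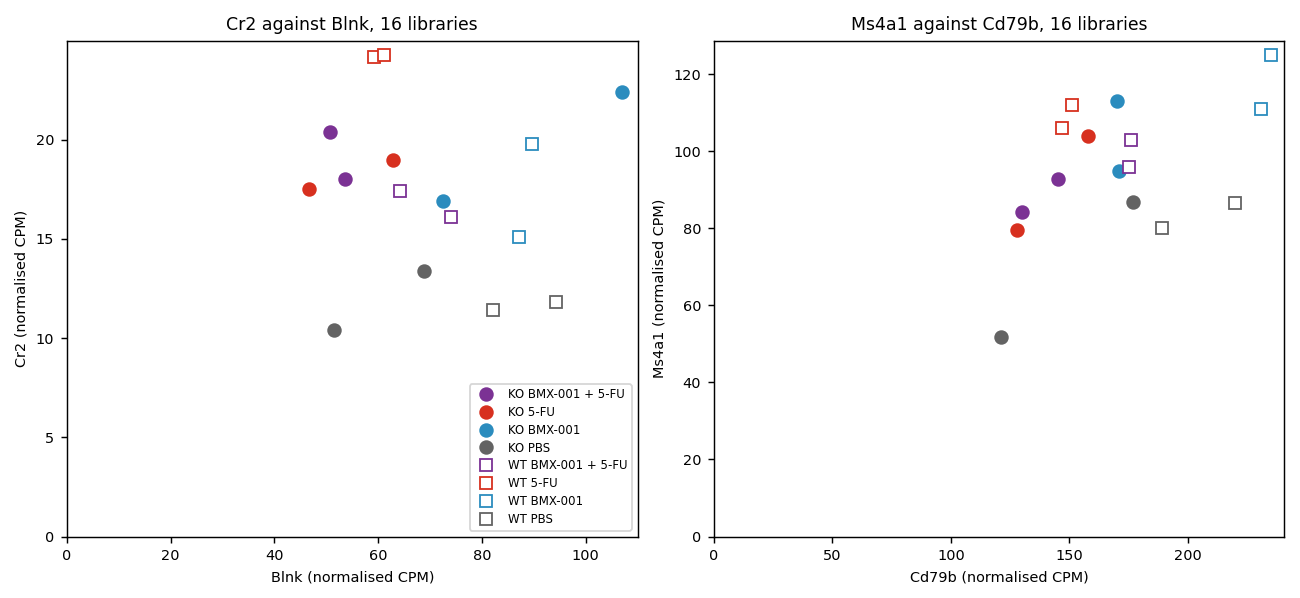
Cr2 against Blnk (left) and Ms4a1 against Cd79b (right) in normalised CPM, 1 point per library, KO filled circles and WT open squares, coloured by treatment. The WT 5-FU libraries combine the highest Cr2 (24.2 and 24.3 CPM) with low Blnk (59.1 and 61.2 CPM), and the WT PBS libraries the reverse.

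Other genes of the receptor pathway and of B cell stages were read from lists beside the 9. Of 24 B cell receptor pathway genes, all tested, 0 were called in edgeR on 16 libraries for 5-FU in either genotype or for KO against WT, with median log2 differences of -0.16 for 5-FU against PBS in KO, -0.21 in WT and -0.07 for genotype. On 15 libraries, Dok3, an adaptor that restrains the signal and is also made by myeloid cells, was lower after 5-FU in KO (59.9 and 64.2 CPM, against 84.4 and 79.9 CPM in PBS, -0.41 ± 0.08, edgeR adjusted p = 0.0089) and in WT (-0.59 ± 0.08, adjusted p = 0.00177). Rasgrp3 and Ighd, the IgD heavy chain of mature B cells, were called higher after 5-FU in KO, and Ptpn6 and Bcl10 lower after 5-FU in WT, which made 3 of 24 genes called in each genotype, where 2.82% of all genes were called in KO and 6.87% in WT. Ighd measured 103 and 101 CPM in KO 5-FU libraries, against 83.4 and 60.9 CPM in KO PBS libraries. For genotype, Btk, the tyrosine kinase activated through Blnk, was the 1 gene of 24 called, lower in KO (-0.17 ± 0.04, adjusted p = 0.0341, where 1.39% of all genes were called). On 16 libraries these 7 calls had adjusted p of 0.147 to 0.557.

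Of 24 mature B cell genes 0 were called on 16 libraries in the 5-FU and genotype comparisons, with a median of 0.11 for 5-FU against PBS in KO, -0.20 in WT and -0.14 for genotype. On 15 libraries Tnfrsf13c, the receptor for the survival factor BAFF, and Ly6d were lower in KO than in WT (-0.40 ± 0.07 and -0.30 ± 0.06, edgeR adjusted p = 0.0137 and 0.0336). They were 2 of 24 genes, where 1.39% of all genes were called. H2-DMb2 was called higher after 5-FU in KO and Cd37 lower after 5-FU in WT, 1 of 24 in each, a share near the 2.82% of all genes in KO and below the 6.87% in WT. On 16 libraries these 4 calls had edgeR adjusted p of 0.0747 to 0.259.

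The 16 genes of pro-B and pre-B cells summed lower with 5-FU in WT mice, where the groups were separate, and overlapped in KO mice. They summed to 484 to 733 CPM in KO libraries given 5-FU and 606 to 807 CPM in those not given it. In WT they summed to 690 to 897 CPM with 5-FU and 922 to 1020 CPM without. KO BMX-001 replicate 1, the library highest in Blk and Blnk, had 606 CPM, the lowest sum of the 4 KO libraries not given 5-FU. Their median log2 difference was -0.19 for 5-FU against PBS in KO, -0.38 in WT and -0.36 for KO against WT. Only Myl4, a myosin light chain gene, was called on 16 libraries, lower in KO than in WT (-0.81 ± 0.13, edgeR adjusted p = 0.0341, and 0.0501 on 15 libraries) and lower after 5-FU in KO averaged over BMX-001 (-1.15 ± 0.19, adjusted p = 0.00793, and 0.0206 on 15 libraries). Myl4 was 1 of 16 listed genes in each of these comparisons, where 0.178% and 1.9% of all genes were called on 16 libraries. The part of precursor cells in the values of the 9 genes was not tested. The 10 plasma cell genes summed to 563 to 2850 CPM in KO and 322 to 677 CPM in WT. In the KO PBS libraries, Igha alone made 1510 and 2200 CPM of sums of 2090 and 2850 CPM. Igha was the 1 gene of 10 called for genotype over 4 treatments, higher in KO (2.83 ± 0.28, edgeR adjusted p = 0.00286, where 0.178% of all genes were called). Of the 10, 6 were positive over 4 treatments (median 0.35) and 5 in PBS (median -0.01). Irf4 was the 1 gene of 10 called lower after 5-FU in KO averaged over BMX-001 (-0.85 ± 0.18, adjusted p = 0.0335, where 1.9% of all genes were called). That Irf4 call was lost on 15 libraries (adjusted p = 0.172), and for 5-FU against PBS in KO Irf4 was at -0.55 ± 0.26 (edgeR adjusted p = 0.542).

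The genes most like the 9 were found by Spearman's rho with the mean of their centred log2 CPM over the 16 libraries, among 12148 other genes. Among the highest were Edaradd (0.94), Srpk3 (0.91), Gbp9 (0.89), Ablim1 (0.89), Grap (0.88), Ikzf3 (0.88) and 2010309G21Rik (0.87). Pearson's r for these was 0.73 to 0.92 over 16 libraries and 0.76 to 0.93 without KO BMX-001 replicate 1.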

How the data were processed

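RNA of whole marrow was sequenced as 16 libraries in 8 groups. The authors deposited whole-number read counts per Ensembl gene in 1 table with 0 unused columns. Per the submitters' processing notes the build was GRCm39 and the tools were featureCounts, Salmon 1.4.0, Trim Galore 0.6.4, FastQC 0.12.1, R 4.3.0 and DESeq2 1.38.3. The aligner, annotation and strand setting were not given in the sources used here. Whether overlapping genes were resolved by strand is therefore not known. Symbols and exon lengths came from GENCODE M21 (51880 of 57132 IDs matched). That annotation is on build GRCm38, so the CPM per kb values use lengths from another build than the counts.

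Counts were filtered with filterByExpr, scaled by TMM and fitted as 8 group means with edgeR 4.0.16 (robust quasi-likelihood; R 4.3.3, limma 3.58.1) in 11 comparisons, with Benjamini-Hochberg adjustment over all genes tested and a threshold of 0.05. The fit left 8 residual degrees of freedom, and 7 on 15 libraries. Alternatives were DESeq2 1.42.0, its size factors, no filter, a replicate block and each library left out. The fit without KO BMX-001 replicate 1 and its second omissions were added after seeing the data. The 9 genes and the gene lists were chosen with earlier results of these data known. Genes named beyond the 9 were the called genes of each list, at most 5, and the 8 most alike, of which 1 is not reported here; the ratios were added after seeing values. Replicate numbers did not pair the libraries.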

Additional observations from a re-analysis of the deposited data

Results flagged for a closer look

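Of 54 sets of 4 or 8 libraries examined over the 9 genes, 4 held a library far from the others by Dixon's criterion, and chance marks about 1 in 20. Blk in KO BMX-001 replicate 1 measured 54 CPM, and the nearest of the other 7 KO libraries 35.5 CPM. Blnk in the same library measured 107 CPM, and the nearest 72.5 CPM. This is the library that stands apart on the first principal component. Cd79b in KO PBS replicate 2 measured 121 CPM, and the nearest of the other 3 KO libraries not given 5-FU 170 CPM. Cd22 in WT PBS replicate 2 measured 49.6 CPM, and the nearest of the other 7 WT libraries 62.9 CPM. No explanation was tested for any of the 4.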

How the results depend on the processing

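Counts of the 9 genes called with edgeR on 16 libraries changed as follows, the cause being untested unless given. Without the filter on low counts, the genes of the 9 called numbered 4 for KO against WT over 4 treatments, 1 in PBS, 2 for 5-FU against PBS in WT, 3 for averaged 5-FU in KO, 4 in WT, and 3 for BMX-001 in KO. Over all genes, calls without the filter numbered 879 and 268 for genotype (over 4 treatments and in PBS), 737 and 634 for 5-FU against PBS in KO and WT, 1790 and 430 for averaged 5-FU in KO and WT, 202 for the interaction, 3651 and 187 for BMX-001 in KO and WT, and 137 and 36 for both agents against 5-FU in KO and WT. DESeq2 called 2 of the 9 for genotype over 4 treatments, 1 for 5-FU in WT, 2 for averaged 5-FU in each genotype and 1 for BMX-001 in KO. Over all genes it called 338 and 33 for genotype, 363 and 439 for 5-FU against PBS in KO and WT, 863 and 214 for averaged 5-FU in KO and WT, 27 for the interaction, 1803 for BMX-001 in KO and 6 for both agents against 5-FU in KO.

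Same-numbered libraries did not deviate together: in 6 of 28 pairs the correlation was over 0.1 (range -0.39 to 0.2). With the replicate number as a block, 0 of the 9 genes were called for 5-FU in KO (Cd200, edgeR adjusted p = 0.0636) and 0 of all genes for 5-FU in WT.

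With each library left out in turn, calls among the 9 ranged over 0 to 3 for genotype over 4 treatments, 0 to 2 for 5-FU and 0 to 4 for averaged 5-FU in KO, 0 to 1 for each of these in WT, 0 to 1 for the interaction, 0 to 4 for BMX-001 in KO, and 0 in the other 4 comparisons. Calls over all genes ranged over 14 to 4467 and 3 to 20 for genotype, 0 to 556 and 0 to 1353 for 5-FU in KO and WT, 139 to 6008 and 0 to 382 for averaged 5-FU in KO and WT, 0 to 3645 for the interaction, 0 to 9015 and 0 to 1 for BMX-001 in KO and WT, and 0 to 1 and 0 to 3 for both agents against 5-FU in KO and WT. The highest counts mostly came without KO BMX-001 replicate 2, so that the deviating library is alone in its group, or without replicate 1. With replicate 1 and a second library left out, calls among the 9 ranged over 0 to 5 and 0 to 2 for genotype, 0 to 4 and 1 to 5 for 5-FU in KO and WT, and 0 to 3 and 0 to 4 for averaged 5-FU in KO and WT, and were 0 in the other 5. Over all genes they ranged over 88 to 444 and 5 to 283 for genotype, 257 to 799 and 9 to 1744 for 5-FU in KO and WT, 452 to 862 and 31 to 872 for averaged 5-FU, 0 to 25 for the interaction, 0 to 7 and 0 to 371 for BMX-001, and 0 to 7 and 0 to 1 for both agents against 5-FU, in the same order.

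For single genes of the 9, the settings of the first kind (filter, DESeq2, size factors, block, 1 library left out) left 1912 results on the same side of the threshold, moved 44 past it and took 19 back, with no called gene reversed. DESeq2 gave no adjusted p in 5 cases, which were left out. The replicate SD of the mean of the 9 was 0.14 (log2). Between single groups of 2 libraries, a difference of that size lies within replicate spread, and no test of this mean was run.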
